A study of Mus musculus with 19 samples.

Results

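The 8 genes described here carry hexoses into the hepatocyte, use fructose and glucose there, or sense and answer carbohydrate supply: Slc2a2, Khk, Tkfc, Gckr, Pklr, Mlxipl, Txnip and Fgf21. They were taken by gene symbol from a gene-level table of Salmon-estimated counts, a rule that uses no measured value, though the genes were proposed with earlier results of these data known. They were 8 of the 55836 genes listed, and all 8 were among the 13597 genes with enough counts to be tested. RNA was sequenced from 19 livers of male wild-type C57BL/6 mice, 8 weeks old at the start, which received a control diet (CD) or a diet for metabolic dysfunction-associated steatohepatitis (MASH; MD) together with daily oral gavage for 8 weeks. Polyethylene microplastic (PE, 2 mg per mouse and day) was given in 0.1% Tween 20, and the vehicle (Veh) was 0.1% Tween 20 alone, so every mouse received the detergent and the gavage. The MD held 40% of its energy as fat and 20% as fructose, with 2% cholesterol, and the CD held 10% of its energy as fat with matching sucrose, which itself supplies fructose. There were 4 libraries of CD + Veh and 5 each of CD + PE, MD + Veh and MD + PE, all of whole liver and all labelled as a single batch. The hour of tissue collection and the length of any fast, on which several of these genes are known to depend, are not given in the sources used here.

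The fructokinase gene Khk and the pyruvate kinase gene Pklr were lower in all 3 other groups than in CD + Veh, and their means were lowest in MD + PE. Between the MD groups, however, Pklr was not called, and the Khk call was held in 7 of 19 fits that left out a library. With a score of clock genes as a term, Pklr was no longer called with PE on the CD, nor Khk with the MD. Khk stood at 681 ± 71.8 CPM (read counts relative to library size, mean ± SD, n = 4) in CD + Veh and at 309.8 ± 13.00 CPM (n = 5) in MD + PE, and Pklr at 869 ± 85.5 and 240.3 ± 14.99 CPM. Tkfc was lower with PE on the CD, and Slc2a2 and Txnip were lower in MD + Veh than in CD + Veh, while among PE livers neither was called between the diets. Mlxipl, which encodes the transcription factor ChREBP itself, and Gckr met both limits of a call in no comparison. Of 15 other genes listed as ChREBP targets, 10 fell with PE on the CD (1.7% of all genes were called lower) and 10 with the MD (5.63%). Many of the 15 are also known targets of SREBP-1c, and the list was chosen with earlier results of these data known.

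As background, GLUT2, the product of Slc2a2, lets glucose and fructose pass through the hepatocyte membrane in both directions. Ketohexokinase (Khk) phosphorylates fructose to fructose 1-phosphate, and triokinase (Tkfc) phosphorylates the glyceraldehyde that comes from it, which delivers carbon to the middle of glycolysis past the phosphofructokinase step. Gckr encodes a regulatory protein of hepatic glucose phosphorylation that answers fructose 1-phosphate. Liver pyruvate kinase (Pklr) catalyses the last step of glycolysis. Sugar phosphates activate ChREBP, which binds carbohydrate response elements together with its partner Mlx and switches on Pklr, lipogenic genes, Txnip and, in the liver, Fgf21.

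All values below are CPM after scaling of library sizes by the trimmed mean of M values (TMM), and fold changes are log2 values from edgeR's quasi-likelihood test with their standard errors (SE). A gene was called when its Benjamini-Hochberg adjusted p over all 13597 genes was below 0.05 and its log2 fold change was at least 0.38 in size, the limits of the study's own methods. Library totals ran from 10398820 to 15456729 counts, with medians of 15089731.5 in CD + Veh, 14790140 in MD + Veh, 11615001 in MD + PE and 10837229 in CD + PE, so that all PE libraries were shallower than all vehicle libraries. The members' counts ran from 551 to 14764 per library, apart from Fgf21 with 23 to 524. Libraries are numbered 39 to 57, vehicle first (39 to 47) and PE after (48 to 57), so the order of the libraries and the effect of PE cannot be told apart. The ribosomal pseudogene Rps6-ps4 had 1088 to 1690 counts in libraries 39 to 45 and 0 in libraries 46 to 57, a division that runs through MD + Veh. A clock score, the mean log2 CPM of Bmal1, Clock and Npas2 less that of Dbp, Nr1d1, Per2, Per3 and Ciart, ran from -4.56 to -3.34 in CD + Veh and from -2.90 to 1.28 over the other groups, without overlap. In bulk tissue, fewer cells of a type and less RNA per cell cannot be told apart. The summed level of 6 hepatocyte markers was 64499 to 81415 CPM in CD + Veh and 59245 to 85489 with PE on that diet, and 43893 to 57492 in MD + Veh and 42755 to 56528 with PE. Of these 6 markers, Alb and Apoa1 (2) were called lower in MD + Veh than in CD + Veh (5.63% of all genes), with a list median of -0.35, and none of the 6 was at 0 in all libraries of a group. In MD + PE, 4 of the 6 were called lower than in CD + Veh (8.55% of all genes), with a median of -0.57. Against CD + PE, 3 of the 6 were called lower in MD + PE (2.92%), with a median of -0.37. For PE on either diet, 0 of the 6 were called. The sums of 3 other marker lists were higher in all MD + Veh than in all CD + Veh livers. The 7 Kupffer cell and macrophage markers summed to 79.2 to 136 CPM in CD + Veh and 161 to 247 CPM in MD + Veh, with 1 called higher. The 7 intestinal markers summed to 46.3 to 69.2 and 104 to 122 CPM, nearly all of it Fabp2, a fatty acid binding protein gene (1.08, adjusted p = 7.56e-06), while Cdx1 and Cdx2 were at 0 in both groups. The 5 adipose markers summed to 0.201 to 2.87 and 79.5 to 225 CPM, in MD + Veh mostly from Cfd, the complement factor adipsin (7.56, adjusted p = 1.55e-07), while Adipoq reached at most 4.18 CPM. The part of the cell types in the diet differences below was not tested.

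The members lie on 4 chromosomes of the GRCm39 build, in the GENCODE vM39 annotation used here: Slc2a2 at chr3:28752051-28785508, Pklr at chr3:89043449-89054619 and Txnip at chr3:96465267-96469201, Khk at chr5:31078775-31101479, Gckr at chr5:31454787-31484658 and Mlxipl at chr5:135118744-135168615, all on the plus strand, and Fgf21 at chr7:45263301-45266963 and Tkfc at chr19:10565155-10583018 on the minus strand. Exons of 6 of them share bases with genes of the opposite strand, the most in Khk with 2003 bases of Cgref1, Tkfc with 1268 bases of Cyb561a3 and Pklr with 1239 bases of Hcn3. The libraries were described as stranded, and Salmon assigned reads to transcripts. The antisense transcript of Txnip, Gm15441, which shares 928 exon bases with it, stayed below 0.7 CPM in every library.

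Promoters were read from 250 bases before to 50 bases after the start of each gene's canonical transcript, and are shown for Pklr and Txnip because both are known ChREBP targets that were called with the diet. The motif searched was the carbohydrate response element, a pair of E-box cores 5 bases apart, on both strands. An exact match stood in 19 of 21757 protein-coding promoters (0.0873%), and Pklr was among them. In the Pklr promoter, chr3:89043629-89043928 on the plus strand, the capitals mark the exact match, which begins 119 bases before the start site.
Pklr: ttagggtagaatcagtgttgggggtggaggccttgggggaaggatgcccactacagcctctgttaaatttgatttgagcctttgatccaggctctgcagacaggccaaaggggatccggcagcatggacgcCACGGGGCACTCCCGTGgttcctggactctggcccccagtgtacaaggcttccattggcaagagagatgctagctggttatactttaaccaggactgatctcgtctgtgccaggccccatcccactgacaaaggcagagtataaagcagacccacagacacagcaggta
In the Txnip promoter, chr3:96465017-96465316 on the plus strand, the capitals mark a match with 1 mismatch, which begins 79 bases before the start site.
Txnip: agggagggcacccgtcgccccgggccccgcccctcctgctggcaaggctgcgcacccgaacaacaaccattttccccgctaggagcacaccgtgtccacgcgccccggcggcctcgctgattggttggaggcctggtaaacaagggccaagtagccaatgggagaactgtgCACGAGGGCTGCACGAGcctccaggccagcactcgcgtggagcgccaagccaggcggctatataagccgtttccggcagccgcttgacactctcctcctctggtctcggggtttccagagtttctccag
Up to 1 mismatch was found in 530 promoters (2.44%), which took in Txnip and Gckr, and up to 2 in 5607 (25.8%), which took in Tkfc and Fgf21. The best 17-base windows of Slc2a2 and Mlxipl had 3 mismatches and that of Khk had 4. To show how near the members come to the element, the best windows of 5 of them are given with the bases that the motif fixes in capitals, read on the gene's own strand.
Pklr element: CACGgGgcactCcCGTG
Txnip element: CACGaGggctgCaCGAG
Gckr element: CATGtGatcaaGcCATG
Fgf21 element: AGTGgGgagggCaCGTG
Khk element: CCAGgGctctcCcCAGT
The Fgf21 window, 61 bases before the start site, also held the E box CACGTG, which stood in 1701 promoters (7.82%) and, of the 8 members, in Fgf21 alone. These matches describe letters in 300 bases at most and give no evidence of binding. Of the 19 genes with an exact match, 7 were tested. Pklr was the only gene of these 7 called with PE on the CD, where 2.92% of all genes were called. It was also the only gene of the 7 called with the MD, where 10.4% of all genes were called. For PE on the MD, 0 of the 7 were called (1.08% of all genes).

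**Figure D1:**
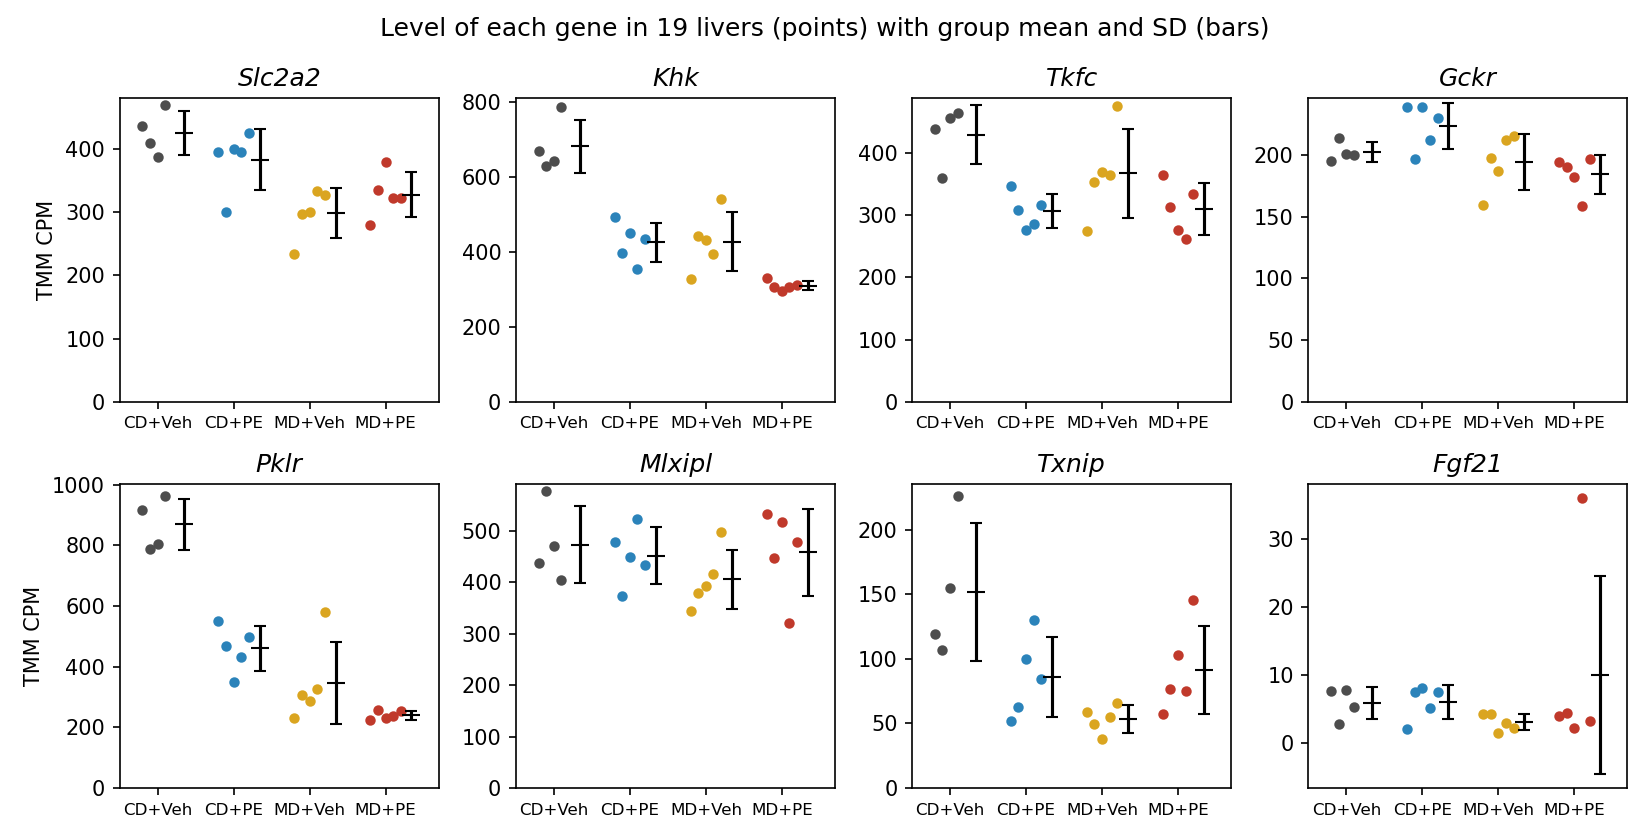
TMM CPM (y axis, starting at 0 except for Fgf21) of the 8 genes in the 19 livers, grouped by diet and gavage (x axis). Each point is a library, and the bar beside it is the group mean ± SD. Pklr and Khk are highest in the 4 CD + Veh livers, with every other liver below them, and Fgf21 has a single high liver, MD + PE replicate 4 at 36.0 CPM.

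Transport came first in the order of the pathway. Slc2a2 stood at 437, 409, 387 and 469 CPM in CD + Veh and at 234, 297, 300.3, 333 and 328 CPM in MD + Veh. All 5 MD + Veh livers lay below all 4 CD + Veh livers, and the difference was -0.51 ± 0.11, adjusted p = 0.00395, or 70.1% of the CD + Veh level. With PE it was 396, 300.2, 399.8, 395 and 425 CPM on the CD and 279.5, 336, 379, 323 and 322 CPM on the MD. PE left Slc2a2 uncalled on either diet (-0.15 ± 0.11, adjusted p = 0.535 on the CD, 0.14 ± 0.11, adjusted p = 0.581 on the MD). MD + PE lay below CD + Veh in every library, at -0.376 ± 0.11, adjusted p = 0.0212, under the fold limit of 0.38 and therefore not called. Slc2a2 was called in 4 of 11 other settings (with no filter on low counts, no fold limit, the replicate block or the library division as a term) and in 4 of 19 fits without 1 library, and with the clock score as a term it was -0.054 (adjusted p = 0.853). Between the diets among PE livers, Slc2a2 was -0.23 ± 0.11, adjusted p = 0.22. MD + Veh replicate 1, the lowest Slc2a2 liver of all 19, also had the highest sum of 8 skeletal muscle markers, 3078 CPM, against 1.06 to 422 CPM in the other 18 livers. All 8 muscle markers were called higher in MD + Veh than in CD + Veh. Their part in the Slc2a2 difference was not tested, and without that library the difference was -0.42 (adjusted p = 0.0111). That library was also the lowest of its group for 6 of the 8 members.

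Of 5 other hexose transporter genes, 4 were tested. In MD + Veh against CD + Veh, Slc2a8, an intracellular transporter, fell (-0.48 ± 0.13, adjusted p = 0.0152), and Slc2a1, the widely expressed glucose transporter GLUT1, rose (0.48 ± 0.16, adjusted p = 0.0468, groups overlapping). For PE on the CD, edgeR called 0 of the 4 and DESeq2 0, and 1 had an unadjusted p under 0.05.

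Of the fructolytic enzymes, Khk was called in all 5 comparisons between groups and Tkfc in 2. Khk stood at 668, 628, 641 and 785 CPM in CD + Veh and at 493, 395, 449, 354 and 434 CPM with PE on that diet, and at 328, 441, 431, 393 and 541 CPM in MD + Veh and at 330.4, 306, 295, 306 and 312 CPM with PE. Every liver of the other 3 groups lay below the lowest CD + Veh liver. The MD + PE livers lay closest together, with a coefficient of variation of 4.20%, against 18.3% in MD + Veh, 12.4% in CD + PE and 10.6% in CD + Veh. On the CD, Khk fell with PE by 0.68 ± 0.12 on the log2 scale (adjusted p = 0.00301), to 62.4% of CD + Veh. With the MD it fell by 0.67 ± 0.12 (adjusted p = 0.000642), to 62.7%. On the MD, it was lower with PE by 0.46 ± 0.11 (adjusted p = 0.0407), and there MD + Veh replicate 1 at 328 CPM lay inside the MD + PE range. That last call was held in 7 of 19 fits that each left out 1 library, with adjusted p up to 0.113, the value without MD + PE replicate 3. Without MD + Veh replicate 5, the highest of its group, the fold was -0.36 (adjusted p = 0.0705). The full step from CD + Veh to MD + PE was -1.14 ± 0.12, adjusted p = 1.17e-06, or 45.5% of the CD + Veh level. The difference between the PE effects on the 2 diets was 0.22 ± 0.16 (adjusted p = 0.726), so no difference between diets was shown.

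Tkfc stood at 438, 359.8, 457 and 465 CPM in CD + Veh and at 346, 308, 276, 287 and 316 CPM in CD + PE, with no overlap. It fell with PE on the CD (-0.49 ± 0.13, adjusted p = 0.0397) to 71.3% of CD + Veh. On the MD it ran from 274 to 476 CPM in MD + Veh and from 262 to 366 CPM in MD + PE, and both ranges overlapped CD + Veh, whose lowest liver had 359.8 CPM. Neither the MD alone (-0.23 ± 0.13, adjusted p = 0.256) nor PE on the MD (-0.25 ± 0.12, adjusted p = 0.34) was called, and MD + PE against CD + Veh was (-0.47 ± 0.13, adjusted p = 0.0131). The call with PE on the CD was a narrow result, held in 11 of 19 fits that left out 1 library, with adjusted p up to 0.136 without CD + Veh replicate 4. Leaving out CD + Veh replicates 1, 3 or 4, any of CD + PE replicates 2 to 5, or MD + Veh replicate 3 ended it. In MD + PE against CD + Veh, the call was lost without CD + Veh replicate 4 (adjusted p = 0.0612) and with the clock score as a term (-0.37, adjusted p = 0.237).

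Among the other genes of fructose and polyol use, Sord, which makes fructose from sorbitol, rose in MD + PE against CD + Veh (0.40 ± 0.09, adjusted p = 0.0051).

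Gckr was called in none of the comparisons. It ran from 195 to 214 CPM in CD + Veh and 196 to 239 CPM with PE on that diet, and from 159 to 215 CPM in MD + Veh and 158 to 197 CPM with PE, and the groups overlapped. Its fold changes were 0.14 ± 0.09, adjusted p = 0.434 with PE on the CD, -0.060 ± 0.09, adjusted p = 0.697 with the MD and -0.075 ± 0.08, adjusted p = 0.722 with PE on the MD. Gckr was -0.28 ± 0.08, adjusted p = 0.0474 in MD + PE against CD + PE, under the fold limit. G6pc1, the glucose 6-phosphatase, was -0.20 ± 0.26, adjusted p = 0.76 with PE on the CD and -0.69 ± 0.26, adjusted p = 0.0819 with the MD. Its transporter partner Slc37a4 fell with PE on the CD (-0.55 ± 0.13, adjusted p = 0.0251) and with the MD (-0.64 ± 0.13, adjusted p = 0.00265), and its groups did not overlap in either comparison. Hk2, a hexokinase of muscle and fat, rose in MD + Veh (2.40 ± 0.76, adjusted p = 0.0422). The summed muscle markers there ran from 2.63 CPM in replicate 5 to 3078 CPM in replicate 1, and their part in the rise of Hk2 was not tested. Slc37a4 and Hk2 were 2 of the 7 tested genes of glucose phosphorylation outside the members in MD + Veh (10.4% of all genes called), and Slc37a4 was the 1 of 7 in CD + PE (2.92%).

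Pklr had the widest range of the 8 genes in CPM. It stood at 918, 789, 806 and 964 CPM in CD + Veh and at 552, 468, 351, 432 and 499 CPM with PE on that diet, and at 230.3, 305, 286, 328 and 581 CPM in MD + Veh and at 223, 257, 229.9, 238 and 255 CPM with PE. No liver of the other 3 groups reached the lowest CD + Veh value, and the MD + PE livers all lay below all CD + PE livers. On the CD, Pklr was lower with PE by 0.92 ± 0.19 (adjusted p = 0.00947), at 52.96% of CD + Veh. With the MD it fell by 1.33 ± 0.19 (adjusted p = 0.000108), to 39.8%. Among PE livers the MD lowered it by a further 0.94 ± 0.18 (adjusted p = 0.00297). These 3 calls were held in all 19 fits that left out 1 library. The difference with PE on the MD was -0.53 ± 0.18, adjusted p = 0.146, not called, and the groups overlapped. MD + Veh replicate 5, at 581 CPM, stood apart from the other 4 MD + Veh livers, which averaged 287 ± 41.8 CPM, and it also had the highest Khk, Tkfc, Gckr, Mlxipl and Txnip of its group. Without it, PE on the MD gave -0.25 (adjusted p = 0.297) and the MD gave -1.59. From CD + Veh to MD + PE the change was -1.85 ± 0.19, adjusted p = 1.2e-06, or 27.6% of the CD + Veh level. The PE effects on the 2 diets differed by 0.39 ± 0.26 (adjusted p = 0.697).

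**Figure D2:**
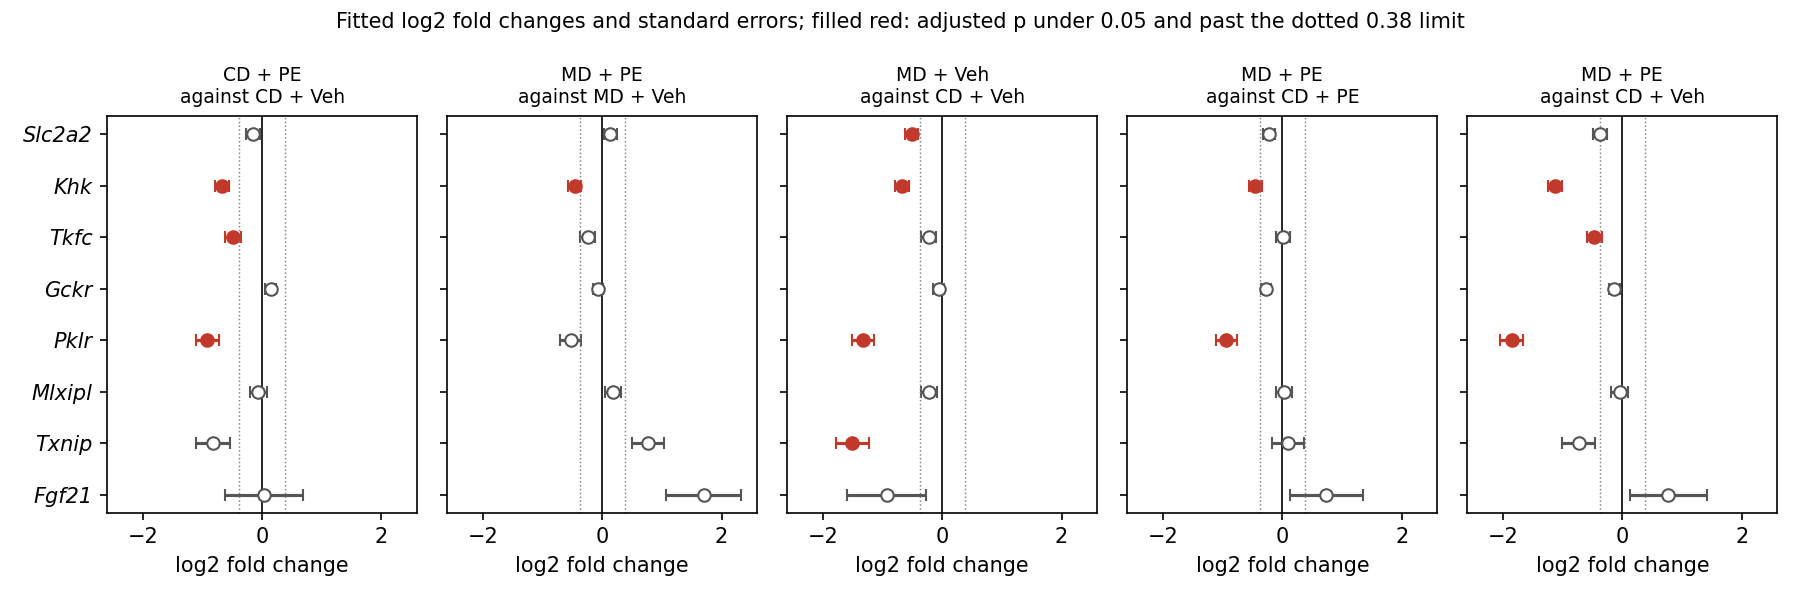
Log2 fold changes (x axis) ± SE of the 8 genes (rows) in 5 comparisons, with filled red points for genes called at an adjusted p below 0.05 and past the dotted lines at 0.38. All 13 filled points lie on the lower side, and Khk is filled in all 5 panels.

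In number, 3 of the 8 genes were called lower in CD + PE than in CD + Veh, against 1.7% of all 13597 genes, and the groups did not overlap for the same 3, against 4.35% of all genes that lay below in every library. In MD + Veh against CD + Veh, 4 of 8 were called lower (5.63% of all genes) and 4 lay below in every library (8.88%). In MD + PE against MD + Veh, 1 of 8 was called lower (0.934%) and no member lay below in every library (2.49%). In MD + PE against CD + PE it was 2 of 8 (2.92%), both without overlap (3.96%), and in MD + PE against CD + Veh 3 of 8 (8.55%), with 3 below in every library (11.3%), where Slc2a2 lay below without being called and Tkfc was called with overlap. Median log2 fold changes of the 8 were -0.32, -0.59, 0.030, -0.11 and -0.42 in that order, where the median of all genes lay between -0.019 and 0.0064. The 3 comparisons against CD + Veh share those 4 livers, so their values are not independent of each other.

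The other glycolytic genes were read from a list of 16 outside the members. With PE on the CD, 4 of 16 were called lower (1.7% of all genes), and 14 of 16 had a negative fold change, with a median of -0.25. The 4 were Pfkfb1, a regulator of the fructose 2,6-bisphosphate level (-0.76 ± 0.15, adjusted p = 0.00737), the isomerase Gpi1 (-0.62 ± 0.13, adjusted p = 0.00873), the enolase Eno1 (-0.48 ± 0.08, adjusted p = 0.00249) and Gapdh (-0.42 ± 0.08, adjusted p = 0.00649). In MD + Veh against CD + Veh, 5 fell (5.63% of all genes were called lower) and 2 rose (4.74% higher). Gpi1 (-0.70 ± 0.13, adjusted p = 0.000958) and Pfkfb3 (-1.29 ± 0.41, adjusted p = 0.0432) fell, and the muscle-type pyruvate kinase Pkm (1.38 ± 0.43, adjusted p = 0.0366) rose. The part of the muscle markers, highest in MD + Veh replicate 1, in the rise of Pkm was not tested. On the MD, Gapdh (-0.54 ± 0.08, adjusted p = 0.001) and Eno1 (-0.41 ± 0.08, adjusted p = 0.00857) were lower with PE, each with every MD + PE liver below every MD + Veh liver. From CD + Veh to MD + PE, 6 fell (8.55% of all genes) and 1 rose (6.02%), with a list median of -0.56.

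Of 7 pentose phosphate genes, which make NADPH and pentoses from glucose 6-phosphate, 3 fell with PE on the CD (1.7% of all genes) and 4 with the MD (5.63%). G6pdx, the first enzyme of the pathway, averaged 34.5 ± 14.6 CPM in CD + Veh and 7.35 ± 5.38 CPM with PE on that diet, and 4.14 ± 0.929 CPM in MD + Veh and 3.43 ± 1.44 CPM with PE. It was -2.23 ± 0.37, adjusted p = 0.00269 with PE on the CD and -3.05 ± 0.38, adjusted p = 3.09e-05 with the MD. Pgd was -0.94 ± 0.19, adjusted p = 0.00802 and Rpia -0.89 ± 0.22, adjusted p = 0.0283 with PE on the CD. On the MD, 2 of the 7 fell with PE (0.934% of all genes), Tkt (-0.44 ± 0.10, adjusted p = 0.0336) and Taldo1 (-0.39 ± 0.07, adjusted p = 0.00773).

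Mlxipl itself stood at 438, 578, 472 and 405 CPM in CD + Veh and at 478, 374, 450.2, 524 and 435 CPM in CD + PE. It ran from 345 to 497 CPM in MD + Veh and from 320.2 to 532 CPM in MD + PE, and all groups overlapped. Its fold changes were -0.066 ± 0.14, adjusted p = 0.874 with PE on the CD, -0.22 ± 0.14, adjusted p = 0.319 with the MD and 0.18 ± 0.13, adjusted p = 0.571 with PE on the MD. The counts do not separate the ChREBP isoforms, and they say nothing of the protein or its place in the cell. Its partner Mlx averaged 28.5 ± 2.38 CPM in CD + Veh and 22.8 ± 2.56 CPM in MD + PE, with an adjusted p of 0.0123 at a log2 fold change of -0.32, under the fold limit. The related factor Mlxip was 0.37 ± 0.18, adjusted p = 0.176 with the MD and 0.063 ± 0.18, adjusted p = 0.916 with PE on the CD. Of the 5 carbohydrate response factors outside the members (Mlx, Mlxip, Srebf1, Nr1h3 and Nr1h2), edgeR and DESeq2 called 0 in each of the 5 comparisons, and at most 2 had an unadjusted p under 0.05, both in MD + PE against CD + Veh.

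Genes listed as ChREBP targets outside the members, most of them lipogenic and many also known targets of SREBP-1c, had larger fold changes. On the CD, 10 of 15 fell with PE and Gpd1 rose, with a median of -1.56, where 1.7% of all genes were called lower and 1.22% higher. The largest falls were those of Pnpla3, a lipid droplet protein (-3.08 ± 0.52, adjusted p = 0.00286), Thrsp (-2.05 ± 0.30, adjusted p = 0.00107), the citrate lyase Acly (-1.82 ± 0.24, adjusted p = 0.000663) and the elongase Elovl6 (-1.75 ± 0.25, adjusted p = 0.00107). DESeq2 called 10 of the 15 in this comparison. Its 2 groups lie wholly on opposite sides of the library division, and with the division as a term the calls over all genes went from 397 to 37. The same limit applies to the glycolytic and pentose phosphate genes above. With the MD 10 of 15 fell and Gpd1 rose (0.96 ± 0.11, adjusted p = 1.58e-05), with a median of -1.49, against 5.63% of all genes lower and 4.74% higher. There the largest falls were those of Rgs16 (-3.54 ± 0.66, adjusted p = 0.00131), Pnpla3 (-2.97 ± 0.51, adjusted p = 0.000615), Acly (-2.17 ± 0.24, adjusted p = 8.73e-06) and the acetyl-CoA carboxylase Acacb (-2.06 ± 0.29, adjusted p = 0.000105). On the MD, 7 of 15 fell with PE, with a median of -0.82, against 0.934% lower and 0.147% higher over all genes. Acacb stood at 122, 115, 51.9, 59.6 and 128 CPM in MD + Veh and at 15.4, 23.9, 11.04, 22.6 and 12.2 CPM in MD + PE, a fall of 2.48 ± 0.29 (adjusted p = 0.000611) without overlap. Thrsp (-1.57 ± 0.28, adjusted p = 0.00816), Fasn (-1.47 ± 0.27, adjusted p = 0.00831) and Scd1 (-1.32 ± 0.19, adjusted p = 0.00121) followed. Among PE livers, 8 fell with the MD and 1 rose (1.69% of all genes were called higher there), and in MD + PE against CD + Veh 13 fell and 1 rose (6.02% higher), with a median of -2.32.

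**Figure D3:**
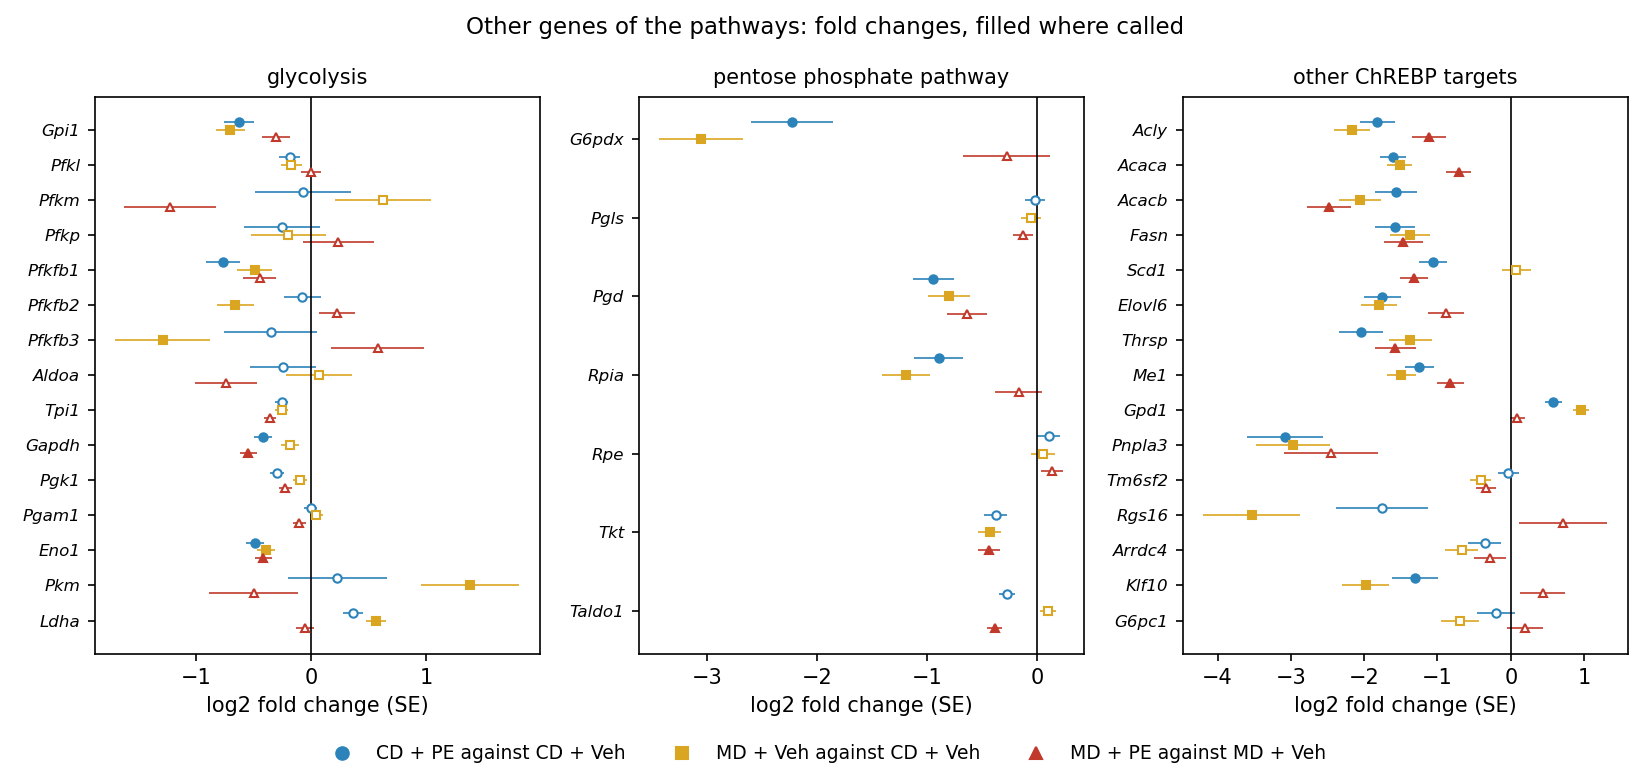
Log2 fold changes (x axis) ± SE of other genes of glycolysis (15 of 16), the pentose phosphate pathway and the ChREBP target list (rows) for PE on the CD (circles), the MD (squares) and PE on the MD (triangles), filled where called. Most filled points lie below 0, and the exceptions above 0 are Gpd1, Pkm and Ldha.

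Txnip, an arrestin-family gene that glucose induces and whose product limits glucose uptake, stood at 119, 107, 155 and 226 CPM in CD + Veh and at 58.9, 49.9, 37.6, 55.2 and 65.7 CPM in MD + Veh. All MD + Veh livers lay below all CD + Veh livers, and the fall was 1.51 ± 0.28 (adjusted p = 0.00126), to 35.2% of CD + Veh, a call held in all 19 fits that left out 1 library. With PE it was 51.8, 62.8, 99.8, 129.8 and 84.5 CPM on the CD and 57.04, 76.5, 103, 74.8 and 145 CPM on the MD, each overlapping its vehicle group. PE gave -0.82 ± 0.28, adjusted p = 0.108 on the CD and 0.77 ± 0.27, adjusted p = 0.156 on the MD, opposite in sign and neither called. Between the diets among PE livers, Txnip was 0.091 ± 0.27, adjusted p = 0.885. The difference between these PE effects was 1.60 ± 0.39, with an unadjusted p of 0.000567 and an adjusted p of 0.216 in edgeR, where 0.00735% of all genes (1 gene) were called. It was the only member with an unadjusted p under 0.05 in that test. DESeq2 called it (1.61, adjusted p = 0.0366), and with the clock score as a term it was 0.95 (adjusted p = 0.549). Over the 19 fits without 1 library it lay between 1.34 and 1.79, with adjusted p from 0.116 to 0.453. From CD + Veh to MD + PE, Txnip was -0.73 ± 0.28, adjusted p = 0.0693, and without MD + PE replicate 5, its highest MD + PE liver at 145 CPM, -0.96 (adjusted p = 0.019). Arrdc4, the sister gene of Txnip and a known ChREBP target too, averaged 13.7 ± 5.06 CPM in CD + Veh and 10.7 ± 1.9 CPM with PE on that diet, and 8.6 ± 1.05 CPM in MD + Veh and 7.11 ± 2.1 CPM with PE. It was -0.67 ± 0.22, adjusted p = 0.0505 with the MD, -0.28 ± 0.22, adjusted p = 0.591 with PE on the MD and called in MD + PE against CD + Veh (-0.95 ± 0.23, adjusted p = 0.00555).

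Fgf21, the liver hormone that answers sugar, fasting and amino acid stress, was the lowest of the 8 genes. It stood at 7.71, 2.87, 7.78 and 5.32 CPM in CD + Veh and at 2.08, 7.54, 8.12, 5.12 and 7.51 CPM with PE on that diet, and at 4.25, 4.34, 1.57, 3.02 and 2.32 CPM in MD + Veh and at 4.06, 4.46, 2.26, 35.98 and 3.32 CPM with PE. A single liver, MD + PE replicate 4, stood at 36.0 CPM (524 counts), and the other 4 of its group averaged 3.53 ± 0.968 CPM. The MD gave -0.93 ± 0.66, adjusted p = 0.376 and PE on the CD 0.032 ± 0.65, adjusted p = 0.991. PE on the MD gave 1.70 ± 0.63, adjusted p = 0.185, and without MD + PE replicate 4 0.19 (adjusted p = 0.874). That liver also had the highest level of all 19 for 5 of 10 genes listed for the integrated stress response: Gdf15 at 45.9 CPM, Ddit3 at 18.1, Trib3 at 14.8, Chac1 at 11.6 and Atf3 at 8.10 CPM. Atf4 at 86.5 CPM was the fifth highest of 19 and Cth at 164 CPM was in place 17. These levels were looked at after Fgf21 had been seen to stand out there. How many of all genes were highest in that liver was not counted, so 5 of 10 has no background beside it. Its library also had the highest TMM factor of the 19 (1.14). The sum of 6 stellate cell markers was 144 CPM in that liver, the highest of MD + PE, against 37.1 in the lowest liver of the group, and its part was not tested.

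**Figure D4:**
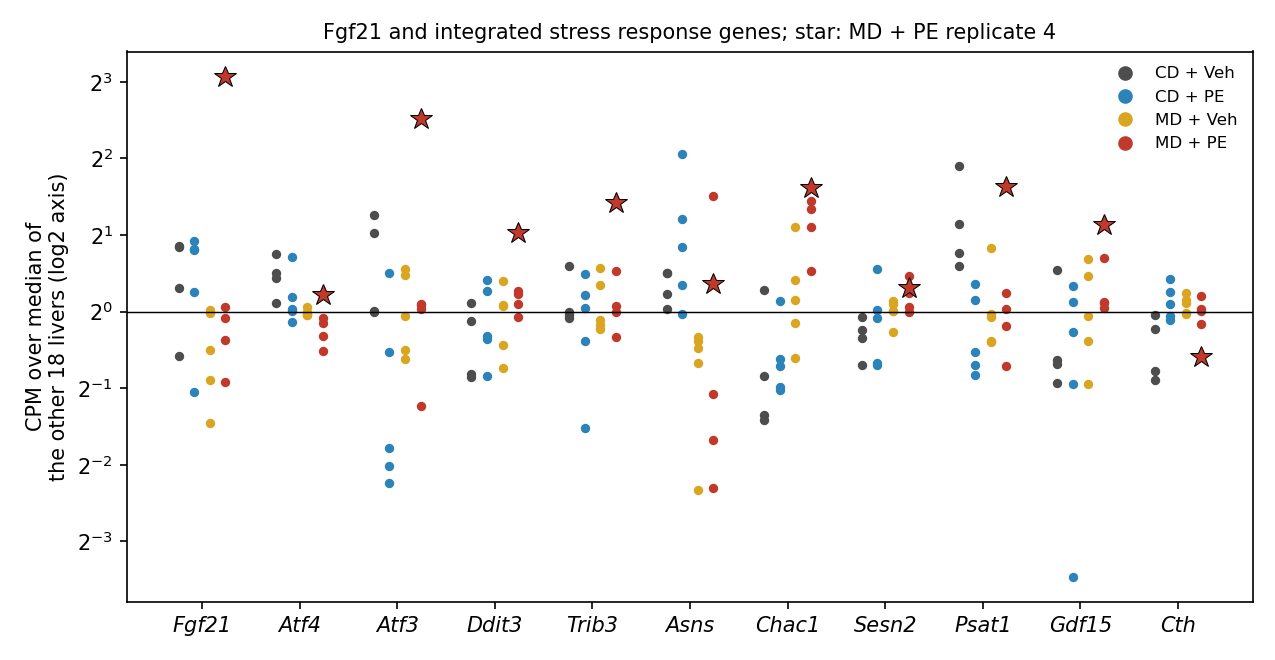
Level of Fgf21 and 10 integrated stress response genes in each liver, as CPM over the median of the 18 livers other than MD + PE replicate 4 (log2 y axis), coloured by group. The star marks MD + PE replicate 4, which is highest for Fgf21, at 8.38 times that median, and for Atf3, Ddit3, Trib3, Chac1 and Gdf15.

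Few genes of the stress list were called. In MD + Veh against CD + Veh, Cth rose (0.54 ± 0.17, adjusted p = 0.0408) and Atf4 fell (-0.49 ± 0.16, adjusted p = 0.0437), 2 of 10, where 10.4% of all genes were called. Chac1 rose in MD + PE against CD + PE (1.83 ± 0.35, adjusted p = 0.00308), the 1 of 10 called there (4.61% of all genes). Among the FGF21 receptor genes, Klb, the co-receptor β-Klotho, was -0.51 ± 0.18, adjusted p = 0.0467 in MD + PE against CD + Veh. Fgfr3 was -0.63 ± 0.15, adjusted p = 0.00765 in MD + Veh against CD + Veh, the 1 of 5 called there (10.4% of all genes). Targets of PPARA, a fasting and fatty acid sensor that also drives Fgf21, were higher: 2 of 12 with PE on the CD (1.22% of all genes called higher) and 7 of 12 with the MD (4.74%). Their medians were 0.48 and 0.69, and none was called lower. Cyp4a10 rose in both (2.45 ± 0.56, adjusted p = 0.0191 and 2.24 ± 0.56, adjusted p = 0.0108), and Pdk4 (1.98 ± 0.61, adjusted p = 0.0366) and Vnn1 (1.42 ± 0.37, adjusted p = 0.0149) with the MD. For PE on the MD, edgeR called 0 of 12 and DESeq2 0, and 2 had an unadjusted p under 0.05.

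Levels of different genes were set side by side per kilobase of merged exons. That length takes in every annotated exon (7397 bases for Khk, 3764 for Pklr), expressed in liver or not. The order of the genes therefore depends on the annotation too. On this scale Pklr was highest in CD + Veh at 231 ± 22.7 CPM per kb, above Tkfc at 93.1 ± 10.4 and Khk at 92.0 ± 9.71, whose ranges overlapped. Mlxipl, Slc2a2, Txnip and Gckr followed between 67.6 and 46.7 CPM per kb, each overlapping the next, and Fgf21 was last at 4.35 ± 1.72. In MD + PE the order was led by Tkfc at 67.1 ± 9.13, Mlxipl at 65.5 ± 12.1 and Pklr at 63.9 ± 3.98 CPM per kb, whose ranges overlapped, and Khk had moved from place 3 to place 6 at 41.9 ± 1.76.

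The 3 genes whose log2 CPM ran most like each member over the 19 livers were taken from 9392 genes that averaged 5 CPM or more. They share libraries, depth and the group differences, so Pearson's r is a description only. For Khk they were Eno1 (0.96), Gpi1 (0.94) and Me1 (0.94), the first pair enzymes of glycolysis and the last the malic enzyme. After subtraction of group means, Eno1 (0.81) and Fbp1, the gluconeogenic fructose bisphosphatase (0.80), were among the closest, while Me1 fell to 0.56. For Pklr they were the mitochondrial outer membrane gene Samm50 (0.95), Elovl6 (0.94) and 1810008I18Rik (0.94), and for Tkfc the liver glycogen phosphorylase Pygl (0.88), Cyp2d40 and Pdhb, a subunit of pyruvate dehydrogenase (0.86). Within groups, Samm50 fell to 0.56 and Elovl6 to 0.74 with Pklr, and Pygl to 0.79 with Tkfc. For Txnip the 3 genes were Gne, Ptp4a1 and Rgs16 (0.83, 0.83 and 0.82). Within groups Foxo3 came first for Txnip (0.85), and Gne had 0.78, Ptp4a1 0.69 and Rgs16 0.64. Slc2a2 ran with Thoc7 (0.93), Akr1c13 and Ralgapa2, Gckr with Bmp1 (0.85), 9630013D21Rik and Apoh, Mlxipl with 0610005C13Rik (0.84), Mup3 and Proz, and Fgf21 with Ifrd1 (0.83), Armcx3 and Pawr.

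**Figure D5:**
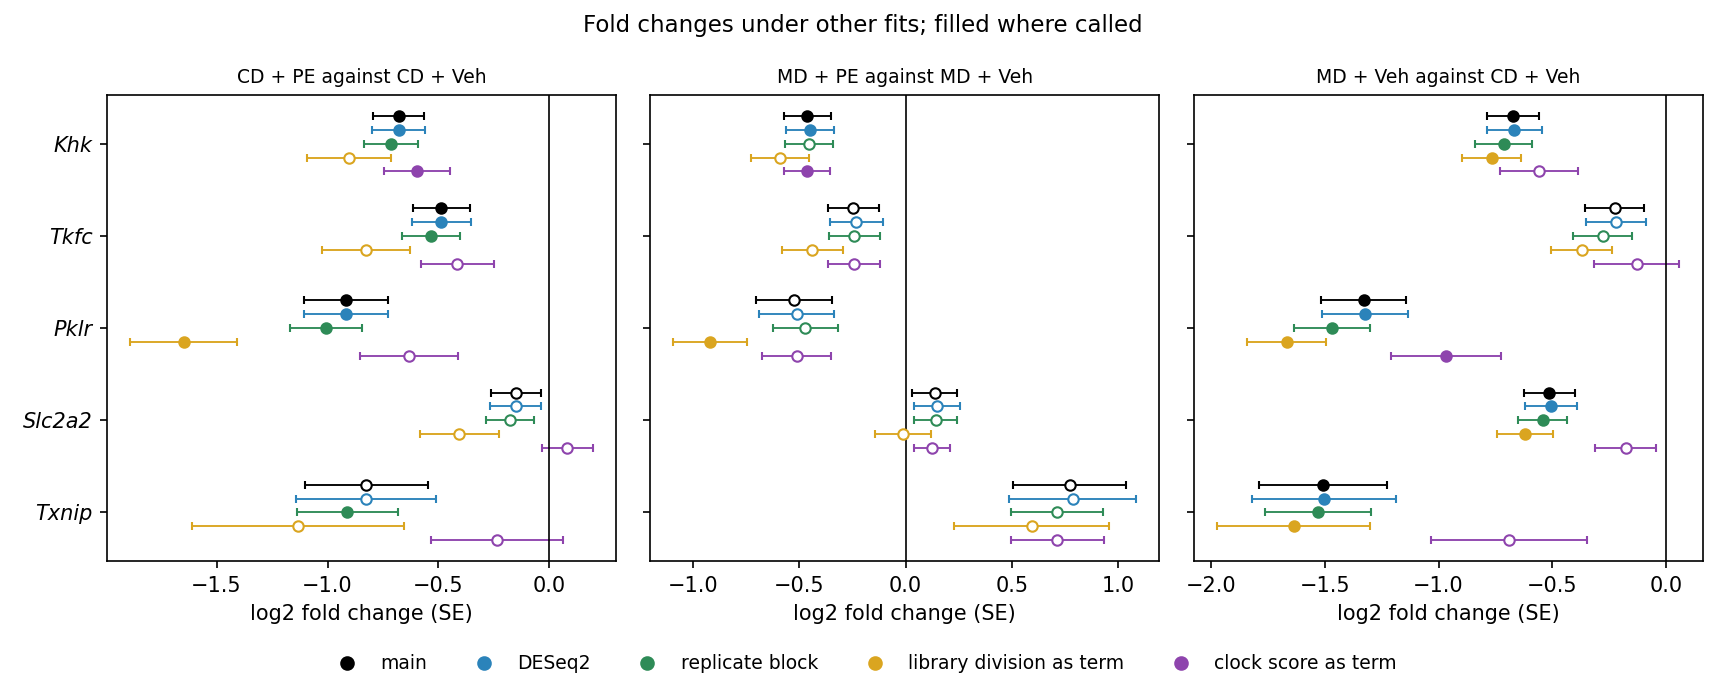
Log2 fold changes (x axis) ± SE of 5 of the genes in 3 comparisons, under the main fit, DESeq2, the replicate number as a block, the division of libraries as a term and the clock score as a term, with filled points where called. With the clock score as a term, the MD points of Slc2a2, Khk and Txnip are open, and the point of Pklr stays filled at -0.97.

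Clock state and library division moved with the groups, and both were entered as terms. With the clock score as a term, PE on the CD gave -0.60 for Khk (adjusted p = 0.0456) and -0.63 for Pklr (adjusted p = 0.144). The MD then gave -0.97 for Pklr (adjusted p = 0.0356), -0.56 for Khk (adjusted p = 0.0856), -0.69 for Txnip (adjusted p = 0.317) and -0.18 for Slc2a2 (adjusted p = 0.547). Since the score of CD + Veh overlaps no other group, these fits rest on the slope within groups. On the clock list 5 of 17 tested genes rose (4.74% of all genes) and 5 fell (5.63%) with the MD, led by Npas2 (3.60 ± 0.76, adjusted p = 0.00344) and Ciart (-2.19 ± 0.65, adjusted p = 0.03). With PE on the CD 2 rose (1.22% of all genes), Bmal1 (1.60 ± 0.40, adjusted p = 0.0308) and Clock (0.63 ± 0.14, adjusted p = 0.0152). Within libraries 39 to 45, where 3 MD + Veh livers stand beside the 4 CD + Veh livers, the MD lowered Pklr (-1.66), Khk (-0.76), Txnip (-1.63) and Slc2a2 (-0.61), with adjusted p of 0.00027, 0.0065, 0.00567 and 0.00917. Within libraries 46 to 57, where 2 MD + Veh livers stand beside the 5 MD + PE livers, PE on the MD gave -0.58 for Khk (adjusted p = 0.174) and -0.90 for Pklr (adjusted p = 0.119). CD + Veh and CD + PE lie wholly on opposite sides of the division. With the division as a term, which rests on MD + Veh, PE on the CD gave -1.65 for Pklr (adjusted p = 0.00942), -0.90 for Khk (adjusted p = 0.0513) and -0.83 for Tkfc (adjusted p = 0.0804). With the same term PE on the MD gave -0.92 for Pklr (adjusted p = 0.0294), a call, and -0.59 for Khk (adjusted p = 0.0923), which lost its call.

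Genes that answer insulin and fasting were read as well, because the labels do not record the feeding state. Of 6 such genes tested (Igfbp1, Pck1, Irs2, Ppargc1a, Sds and Tat), Sds, a serine dehydratase of amino acid breakdown, was the 1 called in MD + Veh against CD + Veh (-0.67 ± 0.21, adjusted p = 0.0408), where 10.4% of all genes were called. For PE on the CD, edgeR and DESeq2 called 0 of 6, and 1 had an unadjusted p under 0.05. The list median was 0.0076 with PE on the CD and -0.54 with the MD. Of other organs that also use Khk or Slc2a2, the 4 kidney markers summed to at most 3.89 CPM in any liver, and the 7 intestinal markers to 57.3 to 79.9 CPM in CD + PE and 100.2 to 182 CPM in MD + PE. MD + PE replicate 2 had the highest intestinal sum, with Slc5a1 at 23.2, Vil1 at 22.7 and Lypd8 at 14.3 CPM, and its Khk and Slc2a2 lay inside the range of the other 4 livers of its group.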

How the data were processed

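Poly(A) RNA of 19 mouse livers was sequenced, per the labels and methods, as stranded paired-end libraries. The authors trimmed reads with fastp 0.23.4 and estimated transcript abundance with Salmon 1.10.3 against a GENCODE transcriptome of GRCm39, summed to genes with tximport; the table deposited by the authors gives 1 estimated count for each gene and library, whole and not normalized. Here counts were rounded (which changed none), filtered with filterByExpr by group, TMM-scaled and fitted in edgeR 4.0.16 (R 4.3.3) with 1 coefficient per group over all 19 libraries; DESeq2 1.42.0 was an alternative. The prior count for log2 CPM was 2. Estimated counts cover multi-mapped reads by model, so genes that share exons remain uncertain. With 4 or 5 livers a group, p-values cover the spread between livers; per the methods the mice of a group shared their housing, so cage and group cannot be told apart, and the days of collection are not given in the sources used here. Groups came from the titles and treatments in the labels. The 8 genes and the gene lists were chosen with earlier results of these data known. Named were the 8 genes, up to 4 called genes of largest change per list and comparison reported, Mlx, Mlxip, Arrdc4, G6pc1 and Klb, and the 3 genes most like each member; some genes that this rule takes in are not reported here, and other names, such as single clock, stress or marker genes, were chosen after their values were seen. In 36 pairs of libraries of 1 group, the mean squared difference over the Poisson expectation was 11.2 to 83.1, so no library was a copy of another of its group. Replicate numbers were compared over 27 same-numbered pairs (median correlation of residuals 0.0436, range -0.270 to 0.469, 10 above 0.1), and did not pair the samples. Motifs were searched in GRCm39 with GENCODE vM39, with mismatches allowed after the exact search had been seen. The fit was tested on simulated data. Alternatives were RLE scaling, DESeq2, no filter and a stricter filter (10 counts throughout a group, mean of 1 CPM), no fold limit, a robust fit of the spread, fits of the compared groups alone, a replicate block, the library division, the clock score, thinning to equal depth and leaving out each library.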

Additional observations from a re-analysis of the deposited data

Results flagged for a closer look

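In 32 tests of whether a single liver stood apart from its group by Dixon's gap ratio (8 genes in 4 groups of 4 or 5 livers), 3 livers did, where chance gives about 1 in 20 such tests. Slc2a2 was 300.2 CPM in CD + PE replicate 2, below the other 4 livers of its group, which averaged 404 ± 14.1 CPM; the same liver had the highest sum of 7 Kupffer cell and macrophage markers of all 19, 359 CPM. Pklr was 581 CPM in MD + Veh replicate 5, above the other 4 at 287 ± 41.8 CPM. Fgf21 was 36.0 CPM in MD + PE replicate 4, above the other 4 at 3.53 ± 0.968 CPM. What sets these livers apart was not tested.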

How the results depend on the processing

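Of 536 fitted values of the 8 genes under other settings of the fit, 505 kept direction and side of the threshold, 13 lost and 10 gained the call and 8 changed sign, and of 912 fits without 1 library 865 kept both, 21 lost and 5 gained the call and 21 changed sign. The number called in CD + PE against CD + Veh went from 3 to 1 with the division of libraries as a term (Pklr) and to 1 with the clock score as a term (Khk). Over all 13597 genes, the calls there went from 397 to 37 with the division and to 273 with the clock score. In MD + Veh against CD + Veh, the number of members called went from 4 to 1 with the clock score (Pklr), and over all genes from 1410 to 395. In MD + PE against MD + Veh the 1 call (Khk) became 0 with only the 2 groups compared, where 73 genes in all were called in place of 147. The number was 0 within libraries 46 to 57 (18 genes in all) and 0 to 1 without 1 library. With the division as a term (33 genes in all), the 1 member called was Pklr in place of Khk. With the replicate block, whose numbers did not pair the samples, it was 0 in MD + PE against MD + Veh (Khk, adjusted p = 0.0616), 5 in place of 3 in MD + PE against CD + Veh (Slc2a2, also called with no filter, no fold limit and the division, and Txnip added) and 1 in place of 0 in the interaction (Txnip, 1.62, adjusted p = 0.0413); under this block Txnip was also called with PE on the CD (-0.91, adjusted p = 0.036). DESeq2 called 1 in the interaction. Signs turned for uncalled genes only: in CD + PE against CD + Veh, Gckr was -0.096 with the division, and Slc2a2 0.081, Mlxipl 0.078 and Fgf21 -0.25 with the clock score; Gckr was 0.070 in MD + Veh against CD + Veh, and Mlxipl 0.16 and Txnip 0.024 in MD + PE against CD + Veh, with the clock score; Slc2a2 was -0.011 in MD + PE against MD + Veh with the division. Without 1 library, Fgf21 ran from -0.20 to 0.27 and Mlxipl from -0.12 to 0.044 in CD + PE against CD + Veh, Gckr from -0.093 to 0.021 in MD + Veh against CD + Veh, Fgf21 from -0.77 to 0.99, Mlxipl from -0.039 to 0.14, Tkfc from -0.051 to 0.080 and Txnip from -0.14 to 0.29 in MD + PE against CD + PE, and Fgf21 from -0.72 to 1.02 and Mlxipl from -0.10 to 0.083 in MD + PE against CD + Veh. The causes of these changes were not tested. Tkfc also lost its call in MD + PE against CD + Veh with the clock score and in CD + PE against CD + Veh with no filter on low counts (adjusted p = 0.0531). Depth limits Fgf21, with 23 counts in its lowest library.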
